A study of Homo sapiens with 6 samples.

Results

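RASSF3, RASSF9 and DOCK1 are 3 genes that act beside Ras-family and Rac GTPases, and their transcripts are described here in Caco-2, a human cell line from a colon carcinoma whose cells take on features of enterocytes when kept confluent. They were chosen by symbol, after earlier results of these same arrays had placed them among the genes that stood far from scramble or far apart between the hairpins, and they are set beside the other 9 symbols beginning RASSF, out of 14884 named genes. RNA was profiled on 6 single-channel Affymetrix arrays, each from total RNA and 2 per group, 17 days after infection of subconfluent cells with a lentivirus. The first group expressed FAM46A-shRNA#2, the second expressed FAM46A-shRNA#4, another hairpin against the same gene, and the control group expressed a scramble shRNA. All groups therefore carried a lentivirus with a hairpin, and no uninfected cells are among the groups compared. FAM46A (TENT5A) encodes a non-canonical poly(A) polymerase. Its level was not analysed here, so the groups follow the labels alone and the degree of depletion with each hairpin was not measured.

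RASSF proteins carry a Ras association domain, a fold that can bind GTP-loaded Ras-family GTPases. In RASSF1 to RASSF6 this domain lies towards the C terminus and is followed by a SARAH helix, through which the proteins pair with the Hippo pathway kinases STK3 and STK4. In RASSF7 to RASSF10 the domain lies at the N terminus and the SARAH helix is missing. RASSF9 was found as a partner of the peptide-amidating enzyme PAM and sits on recycling endosomes. RASSF2 and RASSF3 belong to the first class and are known as growth restraining, pro-apoptotic scaffolds. DOCK1, also called DOCK180, is an exchange factor that loads Rac with GTP, works as a complex with an ELMO protein, and is known for cell migration and the engulfment of dying cells.

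The annotated start of each of the 3 genes is shown because RASSF3 and DOCK1 lay close together on the arrays and RASSF9 did not. Each window runs from 250 bases before to 50 bases after the start, from RefSeq on build GRCh38.p14. RASSF3 is at chr12:64610245-64610544 on the plus strand, RASSF9 at chr12:85836360-85836659 on the minus strand and DOCK1 at chr10:126905178-126905477 on the plus strand. Capitals mark GGGCGG, the GC box, on either strand.
RASSF3: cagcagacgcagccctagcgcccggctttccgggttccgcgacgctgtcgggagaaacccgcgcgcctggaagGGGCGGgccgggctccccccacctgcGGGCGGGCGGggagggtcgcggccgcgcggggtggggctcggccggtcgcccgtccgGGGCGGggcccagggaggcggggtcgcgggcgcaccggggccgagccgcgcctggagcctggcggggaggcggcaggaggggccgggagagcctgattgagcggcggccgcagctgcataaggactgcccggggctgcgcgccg
DOCK1: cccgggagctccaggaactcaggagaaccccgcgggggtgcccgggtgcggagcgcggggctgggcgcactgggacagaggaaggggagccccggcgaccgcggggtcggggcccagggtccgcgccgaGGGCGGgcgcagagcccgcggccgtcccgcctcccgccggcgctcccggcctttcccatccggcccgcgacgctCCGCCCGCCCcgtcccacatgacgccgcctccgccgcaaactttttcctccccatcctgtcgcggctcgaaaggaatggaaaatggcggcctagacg
RASSF9: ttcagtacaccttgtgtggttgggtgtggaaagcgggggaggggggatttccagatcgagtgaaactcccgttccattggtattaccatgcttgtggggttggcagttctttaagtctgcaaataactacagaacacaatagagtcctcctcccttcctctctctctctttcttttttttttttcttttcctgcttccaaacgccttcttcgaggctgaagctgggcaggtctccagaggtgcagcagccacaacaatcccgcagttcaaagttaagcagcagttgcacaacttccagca
The RASSF3 window held 45 CpG dinucleotides and the DOCK1 window 42, against 6 in the RASSF9 window. The median over all 35116 windows of the table was 14. The GC box was matched 4 times in RASSF3, 3 times in DOCK1 and 0 times in RASSF9, overlapping matches included, and 45.0% of all windows held at least 1. A GC box contains a CpG, so these counts are not separate measures. RASSF2, whose pattern lay close to those of RASSF3 and DOCK1 on the arrays, had 7 CpG and 0 GC boxes in its window. Whether this window covers the RASSF2 promoter that is often methylated in colorectal cancer was not checked. The RASSF1 window held 33 CpG and 3 GC boxes, and the RASSF4 window 36 and 9. The windows of RASSF5 held 29 and 15 CpG, and those of RASSF6 held 4 and 16. Whether these counts bear on the array values was not tested. TATAAA (11.5% of all windows), the AP-1 letters TGANTCA (7.71%) and the CRE letters TGACGTCA (1.85%) were in none of the RASSF2, RASSF3, RASSF9 and DOCK1 windows on either strand. The TEAD letters GGAATG (14.0%) were matched 1 time in DOCK1 and 0 times in the RASSF2, RASSF3 and RASSF9 windows. These are letter matches in short windows and not sites.

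The deposited table gives every probe set as its difference from its own median over the 6 arrays. A value near 0 therefore marks the group that lies in the middle, and no level of one gene can be set against that of another. Each RASSF gene and DOCK1 had 1 probe set. No source used here names the log base, and log2 was assumed. The figure after each ± is the standard error from the limma fit (n = 2 arrays in each group), a precision that so few arrays limit. By the labels the 2 arrays of a group are biological replicates, with nothing on what separates them, so the spread behind each p-value may be technical. The centring also removes the level of the cell type markers, so the label of the cells could not be checked by presence or absence. Of 11 measured markers of colon epithelium, 5 fell and 0 rose with shRNA#2, and 4 fell and 1 rose with shRNA#4 (limma adjusted p under 0.05), where 9.54% and 10.4% of all genes fell. With shRNA#2, 2 falls were left without replicate 1 or 2 of shRNA#2 and 3 without replicate 2 of scramble or either shRNA#4 array. With shRNA#4, 2 falls were left without replicate 2 of scramble or of shRNA#4, and the rise ended without either scramble array or replicate 2 of shRNA#4. VIL1, the villin of microvilli, fell whichever array was left out, by 0.48 ± 0.068 with shRNA#2 and by 0.74 ± 0.068 with shRNA#4 (limma adjusted p 0.00514 and 0.00102). The medians of this list on the single arrays were -0.058 and -0.050 with shRNA#2, -0.026 and -0.0045 with shRNA#4, and 0.10 and 0.12 with scramble. Of 6 measured markers of other cell types out of 15, CD68, a macrophage marker, fell by 1.88 with shRNA#2 and fell by 2.14 with shRNA#4 (limma adjusted p 0.00219 and 0.00102), and VIM rose by 0.42 with shRNA#4 (adjusted p 0.00327). These were the only calls of that list, with 0 higher and 1 lower with shRNA#2, and 1 higher and 1 lower with shRNA#4. Over all genes, 21.6% and 26.1% were called. CD14, of the same list, went the other way from CD68. It lay above scramble by 0.31 ± 0.11 with shRNA#2 and 0.36 ± 0.11 with shRNA#4, and was not called (limma adjusted p 0.111 and 0.0637). The medians of that list ran from -0.0112 to 0.0234 over the 6 arrays. What part these markers have in the RASSF and DOCK1 values was not tested. All 6 cultures were Caco-2 by the labels. In bulk RNA, fewer cells with a marker and less of its RNA per cell cannot be told apart.

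RASSF9 had values of 1.15 and 1.07 with shRNA#2, 0.13 and -0.13 with shRNA#4, and -0.82 and -0.99 with scramble. The groups did not overlap in any of the 3 comparisons, and the order was shRNA#2 above shRNA#4 above scramble. Against scramble, RASSF9 lay 2.01 ± 0.10 higher on the log2 scale with shRNA#2 (4.03-fold) and 0.90 ± 0.10 higher with shRNA#4 (1.87-fold). It was the 5th highest of the 14884 changes with shRNA#2 and the 160th with shRNA#4. The hairpins themselves differed by 1.11 ± 0.10 (shRNA#2 minus shRNA#4), the 13th highest. These values, like those of RASSF3 and DOCK1 below, chose the gene and are given without a test.

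RASSF3 had values of -0.19 and -0.35 with shRNA#2, 0.79 and 0.83 with shRNA#4, and -0.047 and 0.047 with scramble. Unlike for RASSF9, scramble lay between the hairpins, with both shRNA#2 arrays below it and both shRNA#4 arrays above it. RASSF3 lay 0.81 ± 0.069 above scramble with shRNA#4 (1.75-fold), while its difference from scramble with shRNA#2 was -0.27 ± 0.069. Each shRNA#2 array alone gave -0.19 or -0.35 for this difference. Between the hairpins (shRNA#2 minus shRNA#4) the difference was -1.08 ± 0.069, the 31st lowest of 14884.

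DOCK1 had values of -0.353 and -0.358 with shRNA#2, 0.80 and 0.77 with shRNA#4, and -0.025 and 0.025 with scramble. The replicates of each group were closer together than those of RASSF3 or RASSF9, and the order of the groups was that of RASSF3. DOCK1 lay 0.78 ± 0.048 above scramble with shRNA#4 (1.72-fold), and its difference with shRNA#2 was -0.36 ± 0.048. The difference between the hairpins (shRNA#2 minus shRNA#4) was -1.14 ± 0.048, the 26th lowest of 14884. When both hairpins were averaged, the difference from scramble was 0.27 ± 0.060 for RASSF3 and 0.21 ± 0.041 for DOCK1, which averages opposite signs and describes neither hairpin. For RASSF9 that mean was 1.46 ± 0.090.

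**Figure D1:**
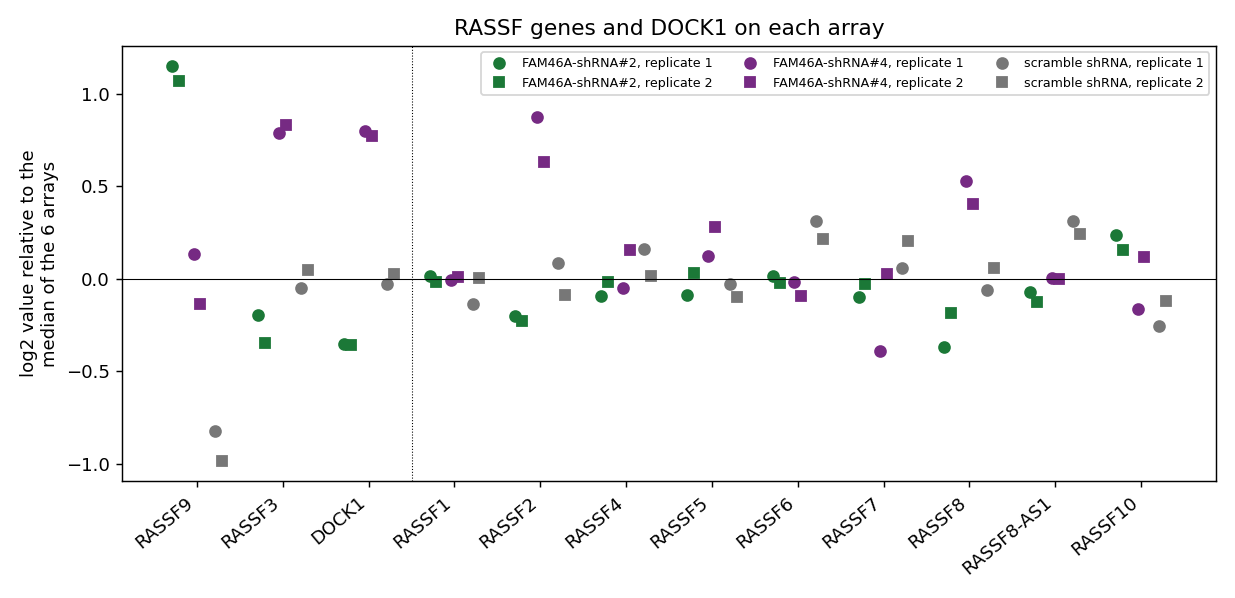
Log2 value of each gene on each of the 6 arrays, relative to the gene's median over the arrays, with 1 point per array, circles for replicate 1 and squares for replicate 2. RASSF9 is highest with shRNA#2 (1.15 and 1.07) and lowest with scramble, whereas RASSF3, DOCK1, RASSF2 and RASSF8 are highest with shRNA#4 and lowest with shRNA#2.

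Non-overlapping arrays are common in this design. They were found in 58.6% of all genes for shRNA#2 against scramble, in 58.6% for shRNA#4 against scramble, in 54.5% between the hairpins and in 36.2% when the hairpins were averaged and set against scramble, so separation of the arrays alone says little about these genes. By the limma test (Benjamini-Hochberg adjusted p under 0.05 over all 14884 genes), 21.6% of all genes were called with shRNA#2 against scramble, 26.1% with shRNA#4 against scramble and 15.3% between the hairpins. The other RASSF symbols were taken by name and are read against these shares.

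Of the 9 other RASSF symbols, 1 rose and 2 fell with shRNA#2, and 3 rose and 2 fell with shRNA#4. Between the hairpins 2 were called, both lower with shRNA#2. Over all genes, 12.1% were higher and 9.54% lower with shRNA#2, 15.7% higher and 10.4% lower with shRNA#4, and 8.63% lower between the hairpins, so with 9 symbols these counts differ from the background by few genes. The median of the 9 was -0.19 with shRNA#2 and 0.069 with shRNA#4, against -0.0018 and 0.0045 over all genes. Without replicate 1 of scramble, 1 of the 9 was called with shRNA#2 and 1 with shRNA#4. Without replicate 1 or 2 of shRNA#2, 1 was called with shRNA#2, and without replicate 2 of shRNA#4, 3 were called with shRNA#4.

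The smallest adjusted p-values among them belonged to RASSF2, a SARAH-bearing scaffold whose promoter is often methylated in colorectal cancer. RASSF2 had values of -0.20 and -0.23 with shRNA#2, 0.87 and 0.63 with shRNA#4, and 0.085 and -0.085 with scramble. It rose by 0.75 ± 0.096 with shRNA#4 against scramble (limma adjusted p 0.00285), and shRNA#2 lay 0.97 ± 0.096 below shRNA#4 (-0.97, adjusted p 0.00325). Its difference from scramble with shRNA#2 was -0.21 ± 0.096 and did not pass (limma adjusted p 0.189). By its means RASSF2 had the group order of RASSF3 and DOCK1, and both of its calls were kept when any 1 array was left out, with adjusted p-values of at most 0.0275.

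RASSF8, an N-terminal member known from adherens junctions, was the other gene that differed between the hairpins. RASSF8 had values of -0.37 and -0.18 with shRNA#2, 0.53 and 0.41 with shRNA#4, and -0.060 and 0.060 with scramble. With shRNA#2 it lay lower than with shRNA#4 by 0.74 on the log2 scale (-0.74 ± 0.085, limma adjusted p 0.00489), a call kept without any 1 array. It rose by 0.47 ± 0.085 with shRNA#4 against scramble (adjusted p 0.0102), but that call ended without replicate 1 of scramble (limma adjusted p 0.0549) and without replicate 1 of shRNA#4 (0.0577). The change with shRNA#2 of -0.28 ± 0.085 did not pass (limma adjusted p 0.0706). RASSF8-AS1, the RNA gene named as antisense to RASSF8, had values of -0.073 and -0.12 with shRNA#2, 0.0035 and -0.0035 with shRNA#4, and 0.31 and 0.24 with scramble. It fell with both hairpins, by 0.38 ± 0.052 with shRNA#2 and by 0.28 ± 0.052 with shRNA#4 (limma adjusted p 0.00477 and 0.0109). The fall with shRNA#4 was not called without replicate 1 of scramble (0.0565) or replicate 2 of shRNA#4 (0.0517). How far probes of this gene pair cross-hybridise or read the other strand was not tested.

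RASSF6, a pro-apoptotic partner of the Hippo kinases, had values of 0.015 and -0.024 with shRNA#2, -0.015 and -0.093 with shRNA#4, and 0.31 and 0.22 with scramble. It fell by 0.27 ± 0.059 with shRNA#2 and by 0.32 ± 0.059 with shRNA#4 (limma adjusted p 0.0229 and 0.0104), and by 0.29 ± 0.051 for the mean of both hairpins (0.0081). For that mean, RASSF6 and RASSF8-AS1 were the 2 called of the 9 symbols, both lower, against 25.4% of all genes called and 10.6% lower. Every RASSF6 call ended without replicate 1 of scramble (limma adjusted p 0.105, 0.0529 and 0.0568). The call with shRNA#2 also ended without replicate 1 (0.0827) or 2 (0.113) of shRNA#2, and that with shRNA#4 without replicate 2 of shRNA#4 (0.056).

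RASSF10, the N-terminal member paired by name with RASSF9, had values of 0.24 and 0.16 with shRNA#2, -0.16 and 0.12 with shRNA#4, and -0.25 and -0.12 with scramble. It rose by 0.38 ± 0.10 with shRNA#2 against scramble (limma adjusted p 0.0463), and lost that call whichever scramble or shRNA#2 array was left out (0.0783 to 0.193). Its shRNA#4 and scramble arrays overlapped, with a difference of 0.16 ± 0.10 (adjusted p 0.341 by limma). RASSF5, which links active Rap GTPases to adhesion in lymphocytes, rose by 0.26 ± 0.074 with shRNA#4 (limma adjusted p 0.046), and this call ended when any array other than replicate 1 of shRNA#4 was left out (0.0608 to 0.191). RASSF1, the tumour suppressor of the family that also binds microtubules, differed from scramble by 0.063 ± 0.061 with shRNA#2 and 0.069 ± 0.061 with shRNA#4 (limma adjusted p 0.571 and 0.516). The corresponding values of RASSF4 were -0.14 ± 0.088 and -0.038 ± 0.088 (limma adjusted p 0.343 and 0.845). RASSF7, a centrosomal N-terminal member, was the least precise. It had -0.097 and -0.026 with shRNA#2, -0.39 and 0.026 with shRNA#4, and 0.056 and 0.21 with scramble, and it was called without replicate 2 of shRNA#4 (limma adjusted p 0.0177) but not with all arrays (0.162).

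**Figure D2:**
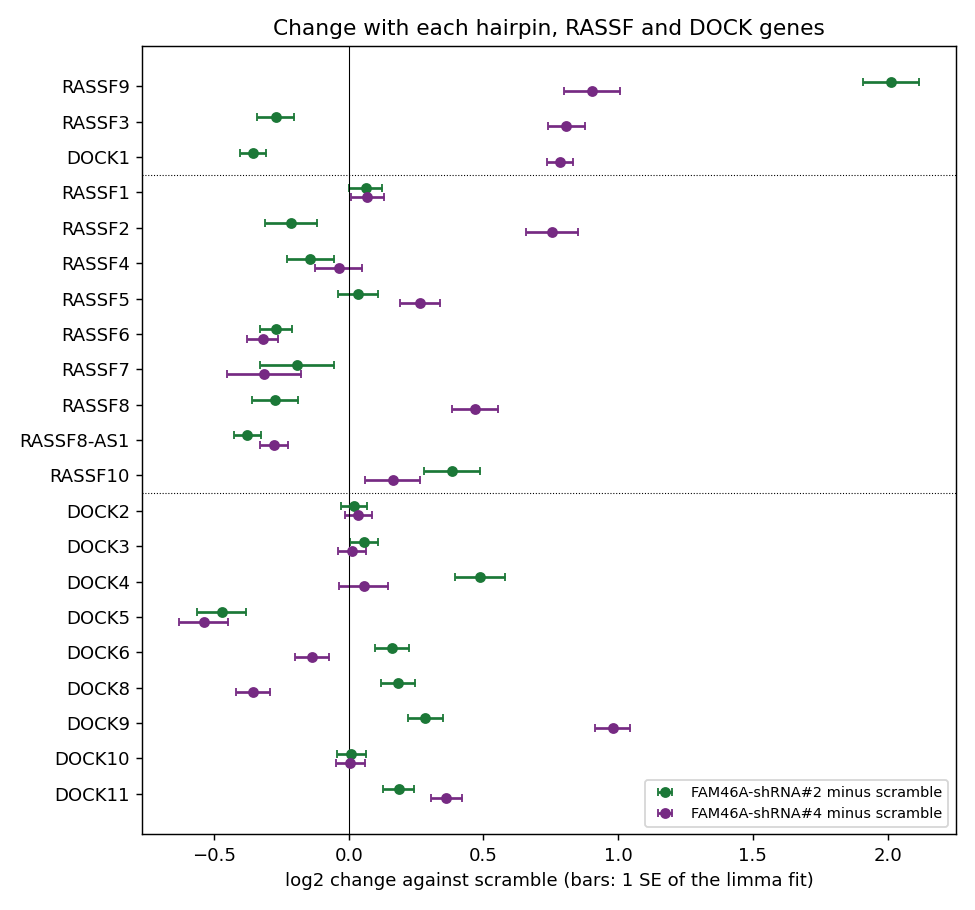
Log2 change against scramble with shRNA#2 and shRNA#4 for RASSF9, RASSF3 and DOCK1 (top), the other RASSF symbols (middle) and the other DOCK genes (bottom), with points for the estimate and bars for 1 SE of the limma fit (n = 2 arrays per group). The points of RASSF3, DOCK1, RASSF2 and RASSF8 lie on opposite sides of 0 for the 2 hairpins, and those of RASSF9 (2.01 and 0.90) on the same side.

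The genes with shRNA#4 above scramble above shRNA#2 came from the C-terminal class (RASSF2, RASSF3) and the N-terminal class (RASSF8), and RASSF9 shared its group order with RASSF10 by group means (0.20 with shRNA#2, -0.023 with shRNA#4 and -0.19 with scramble). Over the 6 arrays, the root mean square difference between DOCK1 and RASSF3 was 0.070 on the log2 scale. RASSF2 was 0.126 from RASSF3 and 0.123 from DOCK1, the 9th and 6th closest of 11915 protein-coding genes, and RASSF8 was 0.225 and 0.200 away, the 93rd and 50th closest. RASSF10 was the RASSF gene closest to RASSF9, at 0.694, but only the 852nd of all.

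Among all protein-coding genes, MOSPD1 was closest to RASSF3 (0.055) and also to DOCK1 (0.044). MOSPD1 had -0.27 and -0.37 with shRNA#2, 0.75 and 0.73 with shRNA#4, and -0.017 and 0.017 with scramble. The next after it was DOCK1 for RASSF3 and RASSF3 for DOCK1. The 3rd closest were EMILIN2, an extracellular matrix glycoprotein (0.105 from RASSF3), and GYS2, the liver glycogen synthase (0.103 from DOCK1). For RASSF9 the closest were GRB14, an adaptor that inhibits the insulin receptor (0.173), NETO2, an auxiliary subunit of kainate receptors (0.193), and EFNB2, a ligand of Eph receptors (0.264). These distances rest on 6 arrays with 3 groups and describe likeness of pattern only.

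**Figure D3:**
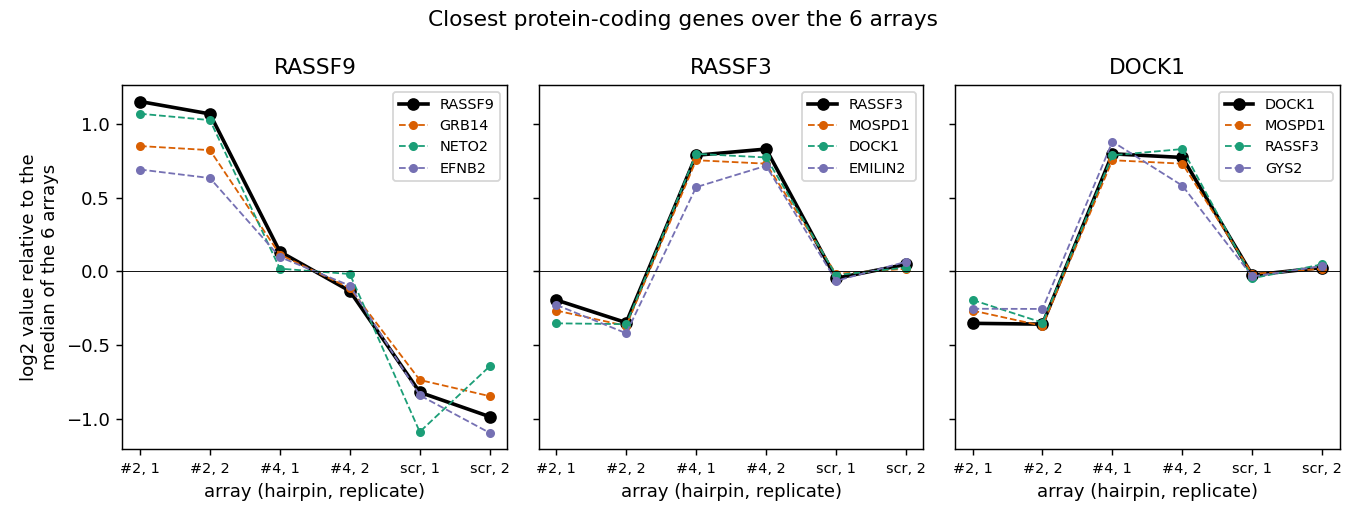
Log2 values over the 6 arrays, relative to each gene's median, for RASSF9, RASSF3 and DOCK1 (black) and the 3 protein-coding genes with the smallest root mean square difference from each (dashed). Lines join arrays of different groups as a guide only, and MOSPD1, RASSF3 and DOCK1 are all highest on the shRNA#4 arrays and lowest on the shRNA#2 arrays.

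The measured protein-coding genes on either side of each locus were also read. Around DOCK1 on chromosome 10, ADAM12 and C10orf90 on one side and NPS and FOXI2 on the other differed from scramble by between -0.11 and 0.017 with either hairpin, with limma adjusted p-values of at least 0.18. Next to RASSF3 on chromosome 12, TBK1 differed from scramble by 0.036 ± 0.068 with shRNA#2 and -0.0047 ± 0.068 with shRNA#4, and WIF1 by 0.068 ± 0.053 and 0.091 ± 0.053, with limma adjusted p-values of at least 0.298. C12orf56 differed by -0.13 ± 0.058 and -0.071 ± 0.058 (limma adjusted p 0.186 and 0.478). The other gene, LEMD3, an inner nuclear membrane protein that restrains SMAD signalling, fell by 0.77 ± 0.054 with shRNA#2 (limma adjusted p 0.000724). With shRNA#4 LEMD3 differed from scramble by 0.11 ± 0.054 (limma adjusted p 0.214), and it lay 0.88 ± 0.054 lower with shRNA#2 than with shRNA#4 (-0.88, 0.00154). ALX1 and LRRIQ1, before RASSF9 on chromosome 12, were not called in any comparison of the hairpins or with scramble (limma adjusted p at least 0.333). After RASSF9, NTS, the neurotensin gene, rose by 0.31 ± 0.052 with shRNA#2 (limma adjusted p 0.00973), with values of 0.20 and 0.22 with shRNA#2, -0.044 and 0.044 with shRNA#4, and -0.11 and -0.081 with scramble. The NTS call ended without any 1 shRNA#2 array (0.0525 and 0.0591) or replicate 1 of scramble (0.0518). NTS was also higher with shRNA#2 than with shRNA#4, by 0.21 ± 0.052 (limma adjusted p 0.0446), and this call ended without any 1 of the 6 arrays (0.0684 to 0.18). RLIG1, an RNA ligase and the next gene, rose by 0.40 ± 0.089 with shRNA#2 and 0.51 ± 0.089 with shRNA#4 (limma adjusted p 0.0244 and 0.00853). The rise with shRNA#2 was lost without either scramble array (0.1 and 0.0797) or without replicate 2 of shRNA#2 (0.0835).

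The DOCK family holds Rac exchange factors such as DOCK1 to DOCK5 and factors for Cdc42 such as DOCK8, DOCK9 and DOCK11. Of the other 9 measured DOCK genes, 2 rose and 1 fell with shRNA#2, and 2 rose and 2 fell with shRNA#4. Over all genes, 12.1% rose and 9.54% fell with shRNA#2, and 15.7% rose and 10.4% fell with shRNA#4. Of the same 9, 3 were higher and 1 lower with shRNA#2 than with shRNA#4 (6.64% higher and 8.63% lower over all genes). Without replicate 1 of shRNA#2 none of the 3 calls with shRNA#2 was left, and without replicate 1 of scramble 1 was left. Between the hairpins, DOCK4 (0.43) and DOCK6 (0.30) were higher with shRNA#2 (limma adjusted p 0.0287 and 0.0293). The DOCK4 call ended without replicate 1 of shRNA#2 (0.116) or either shRNA#4 array (0.0997 and 0.121), and the DOCK6 call without any 1 shRNA#2 or shRNA#4 array (0.0547 to 0.13). Their median change was 0.16 with shRNA#2 and 0.012 with shRNA#4.

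DOCK9, a Cdc42 exchange factor, had values of 0.057 and -0.057 with shRNA#2, 0.73 and 0.66 with shRNA#4, and -0.33 and -0.24 with scramble. It rose by 0.98 ± 0.066 with shRNA#4 (limma adjusted p 0.000453), more than with shRNA#2, where it rose by 0.28 ± 0.066 (0.0282), and the hairpins differed by -0.69 ± 0.066 (shRNA#2 minus shRNA#4, 0.00299). Both calls that involve shRNA#4 were kept without any 1 array. The call with shRNA#2 ended without replicate 1 of scramble (0.128) or either shRNA#2 array (0.144 and 0.0523). DOCK9 was thus highest with shRNA#4, as DOCK1 was, but not below scramble with shRNA#2.

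DOCK8, a Cdc42 factor known from immune cells, ran the other way, with 0.16 and 0.21 with shRNA#2, -0.32 and -0.39 with shRNA#4, and 0.067 and -0.067 with scramble. The hairpins differed by 0.54 ± 0.063 in DOCK8 (shRNA#2 minus shRNA#4, limma adjusted p 0.00521). It fell by 0.36 ± 0.063 with shRNA#4 against scramble (0.00954), a call that ended without replicate 2 of shRNA#4 (0.053). DOCK5, a Rac exchange factor of the same subfamily as DOCK1, had -0.12 and 0.0078 with shRNA#2, -0.0078 and -0.24 with shRNA#4, and 0.37 and 0.46 with scramble. It fell by 0.47 ± 0.091 with shRNA#2 and by 0.54 ± 0.091 with shRNA#4 (limma adjusted p 0.0149 and 0.00762), whereas DOCK1 lay above scramble with shRNA#4. The shRNA#2 call of DOCK5 ended without replicate 2 of scramble (0.069) or replicate 1 of shRNA#2 (0.0847).

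DOCK4, a Rac and Rap exchange factor, rose by 0.49 ± 0.092 with shRNA#2 (limma adjusted p 0.0143), a call lost without replicate 1 of scramble (0.0699) or of shRNA#2 (0.0601). DOCK11, another Cdc42 factor, rose by 0.36 ± 0.057 with shRNA#4 (limma adjusted p 0.00598). DOCK2, DOCK3 and DOCK10, known mainly from blood cells and neurons, differed from scramble by between 0.0062 and 0.056 with either hairpin (limma adjusted p at least 0.563).

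Of 8 measured of 15 listed partners and engulfment receptors, 0 rose and 1 fell with shRNA#2, 1 rose and 1 fell with shRNA#4, and 0 differed between the hairpins (21.6%, 26.1% and 15.3% of all genes called in these comparisons). Between the hairpins limma gave an unadjusted p under 0.05 for 1 of them. The median change was -0.12 with shRNA#2 and -0.029 with shRNA#4. ELMO1, ELMO2 and ELMO3, the scaffold subunits that bind DOCK1, were not called in any of the 3 comparisons. ELMO3, the one with the largest value, had -0.36 and -0.074 with shRNA#2, -0.19 and 0.074 with shRNA#4, and 0.25 and 0.17 with scramble, a difference of -0.42 ± 0.12 with shRNA#2 (limma adjusted p 0.0564). This value passed without replicate 2 of shRNA#2 (0.0467) or either shRNA#4 array (0.0493). The fall with shRNA#2 was in MERTK, a receptor for dying cells, by 0.40 ± 0.071 (limma adjusted p 0.0114, and 0.0652 without replicate 1 of shRNA#2). With shRNA#4, CRKL, an adaptor of the CRK family, rose by 0.26 ± 0.061 and MERTK fell by 0.25 ± 0.071 (limma adjusted p 0.0244 and 0.048). The CRKL call ended without replicate 1 of scramble (0.109) or either shRNA#4 array (0.0776 and 0.105), and the MERTK call when any array other than replicate 1 of scramble was left out (0.0535 to 0.19).

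Of the genes that act after Rac, 6 of 21 listed genes of the WAVE and ARP2/3 complexes and of the PAK kinases were measured. Of them 0 rose and 1 fell with shRNA#2, and 4 rose and 0 fell with shRNA#4, with medians of 0.096 and 0.21 (9.54% of all genes lower with shRNA#2 and 15.7% higher with shRNA#4). The fall with shRNA#2, in CYFIP1, was left only without replicate 1 of scramble. Of the 4 rises with shRNA#4, 1 was left on leaving out either scramble array, either shRNA#2 array or replicate 1 of shRNA#4. ABI1 (0.0734 and 0.187), ACTR3 (0.12 and 0.133) and PAK4 (0.131 and 0.0931) were those lost without replicate 1 and without replicate 2 of scramble. PAK2, a kinase activated by Rac and Cdc42, had -0.081 and 0.018 with shRNA#2, 0.60 and 0.39 with shRNA#4, and -0.16 and -0.018 with scramble. It rose by 0.59 ± 0.091 with shRNA#4 (limma adjusted p 0.00555), and that call was kept without any 1 array. Between the hairpins PAK2 differed by -0.53 ± 0.091 (shRNA#2 minus shRNA#4, 0.0146), a call that ended without either shRNA#2 array (0.0881 and 0.0533) or replicate 1 of shRNA#4 (0.0554). CYFIP1, a subunit of the WAVE complex, differed between the hairpins by -0.29 (limma adjusted p 0.0204), a call that ended without any 1 shRNA#2 or shRNA#4 array (0.0807 to 0.105).

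Of 15 listed Ras and Rap GTPases, 8 were measured, and no Rap gene was among them. They were HRAS, RRAS, RRAS2, MRAS, RALA, RALB, RIT1 and RHEB. Whether RASSF proteins bind each of them was not tested. With shRNA#2, 4 rose and 2 fell, and with shRNA#4, 5 rose and 1 fell, with medians of 0.19 and 0.33. Over all genes, 12.1% rose and 9.54% fell with shRNA#2, and 15.7% rose and 10.4% fell with shRNA#4. Without replicate 2 of shRNA#2 all 4 rises with shRNA#2 ended (HRAS 0.051, RRAS2 0.0712, MRAS 0.144 and RALA 0.0506). Without replicate 1 of scramble, 1 of these 4 was left, and without replicate 2 of scramble or replicate 1 of shRNA#2, 2 were left. With shRNA#4, 3 rises and 0 falls were left without replicate 1 of scramble, and the fall, in RRAS, also ended without replicate 2 of scramble (0.0871) or replicate 1 of shRNA#4 (0.174). HRAS rose by 0.36 ± 0.055 with shRNA#4 and by 0.25 ± 0.055 with shRNA#2 (limma adjusted p 0.00555 and 0.0247), the shRNA#2 call being lost without any 1 scramble or shRNA#2 array (0.051 to 0.132). MRAS rose by 0.69 ± 0.096 with shRNA#4 (limma adjusted p 0.0039), with values of 0.49 and 0.20 with shRNA#4 and -0.36 and -0.34 with scramble. RALA, which drives exocyst-dependent secretion, rose by 0.40 ± 0.059 with shRNA#4 and by 0.37 ± 0.059 with shRNA#2 (limma adjusted p 0.00452 and 0.00763), the second lost without replicate 2 of shRNA#2 (0.0506).

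RALB, the close relative of RALA, fell by 0.56 ± 0.049 with shRNA#2 (limma adjusted p 0.00129), with values of -0.46 and -0.46 with shRNA#2, 0.030 and -0.030 with shRNA#4, and 0.081 and 0.11 with scramble. RIT1 fell by 0.51 ± 0.070 with shRNA#2 (limma adjusted p 0.00474). Both differed between the hairpins (shRNA#2 minus shRNA#4), RALB by -0.46 ± 0.049 and RIT1 by -0.58 ± 0.070 (limma adjusted p 0.00381 and 0.00549), and neither was called with shRNA#4 against scramble (0.236 and 0.591). They were the 2 of the 8 GTPases called between the hairpins, both lower with shRNA#2. Over all genes, 15.3% were called between the hairpins and 8.63% were lower with shRNA#2.

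Of 13 listed Hippo kinases and SARAH partners 11 were measured, of which 3 rose and 1 fell with shRNA#2, and 2 rose and 2 fell with shRNA#4, with medians of 0.061 and 0.19. Over all genes, 12.1% rose and 9.54% fell with shRNA#2, and 15.7% rose and 10.4% fell with shRNA#4. Without replicate 1 of scramble no rise was left, with shRNA#2 (SAV1 0.0969, NF2 0.126 and YAP1 0.166) or with shRNA#4 (NF2 0.115 and WWC1 0.0718). The 3 rises with shRNA#2 also became 0 without replicate 1 of shRNA#2 and 1 when any other array was left out. Both rises with shRNA#4 also ended without replicate 1 of shRNA#4 (NF2 0.152 and WWC1 0.105) or replicate 2 of shRNA#4 (0.137 and 0.0584), and 1 of them was left when any of the other arrays but replicate 1 of scramble was left out. WWTR1 (TAZ), a co-activator that this pathway restrains, had values of -0.36 and -0.28 with shRNA#2, 0.12 and -0.12 with shRNA#4, and 0.72 and 0.70 with scramble. It fell by 1.03 ± 0.084 with shRNA#2 and by 0.71 ± 0.084 with shRNA#4 (limma adjusted p 0.00107 and 0.00217). The kinases that bind the SARAH helix were not called against scramble. STK4 differed from scramble by 0.036 ± 0.062 with shRNA#2 and 0.036 ± 0.062 with shRNA#4 (limma adjusted p 0.783 and 0.779). STK3 differed by 0.061 ± 0.084 with shRNA#2 (limma adjusted p 0.713) and -0.27 ± 0.084 with shRNA#4 (limma adjusted p 0.0622). STK3 was higher with shRNA#2 than with shRNA#4 by 0.33 ± 0.084 (limma adjusted p 0.048), a call that ended without any 1 shRNA#2 or shRNA#4 array (0.0862 to 0.207). MOB1A, a co-factor of the LATS kinases, fell by 0.45 ± 0.073 with shRNA#4 (limma adjusted p 0.00681), with values of 0.093 and 0.010 with shRNA#2, -0.34 and -0.52 with shRNA#4, and 0.051 and -0.010 with scramble. MOB1A was higher with shRNA#2 than with shRNA#4 by 0.48 ± 0.073 (limma adjusted p 0.0105), a call that ended without replicate 1 of shRNA#2 (0.0695).

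**Figure D4:**
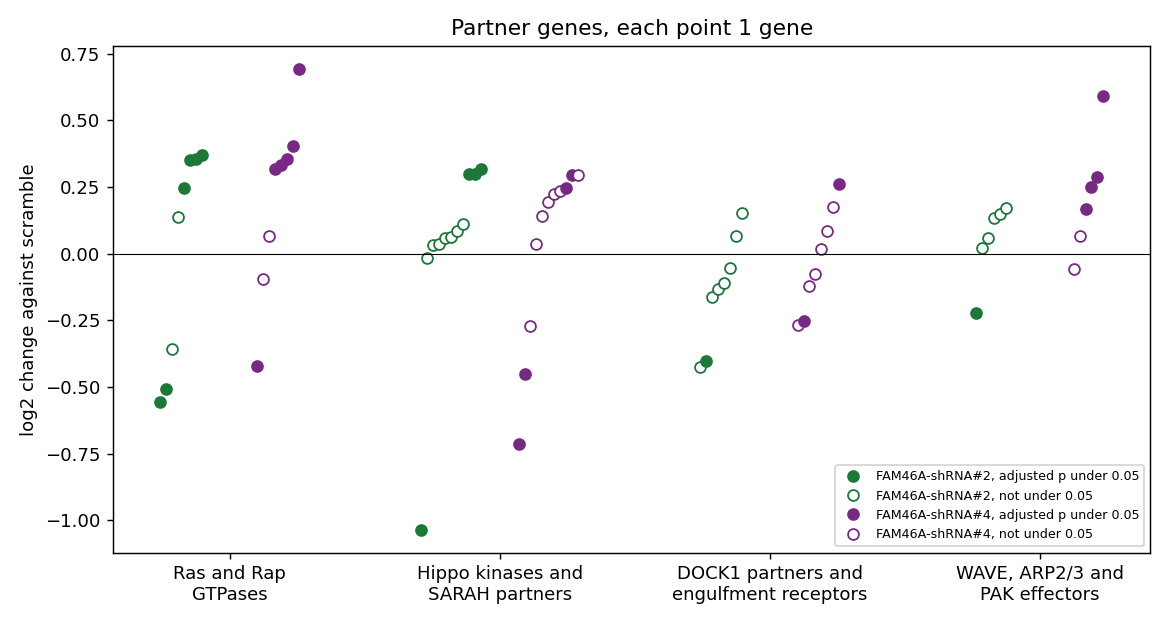
Log2 change against scramble of each measured gene of 4 partner lists, with 1 point per gene, shRNA#2 in green and shRNA#4 in purple, filled where the limma adjusted p was under 0.05. WWTR1 is the lowest point with either hairpin (-1.03 and -0.71), and MRAS (0.69) and PAK2 (0.59) are the highest with shRNA#4.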

How the data were processed

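Total RNA of 6 Caco-2 cultures was labelled with the GeneChip WT PLUS kit, per the labels' protocols, and read on 1 array each. The authors deposited a table of 48144 probe sets on a log2-like scale. The sources used here name no log base, background correction or normalization. Every probe set had a median of 0 over the 6 arrays (within 5e-07), so the deposited log2 values hold differences and no levels. The platform annotation gave exactly 1 symbol to 16098 probe sets. The other 32046, with no symbol or with several, were not among the named genes. Probe sets of a gene were averaged, leaving 14884 genes. One limma fit (version 3.58.1, R 4.3.3) with a mean per group, lmFit and eBayes covered all genes and 6 arrays, and p-values were adjusted across all of them (Benjamini-Hochberg, threshold 0.05). It had 3 residual and 3.09 prior degrees of freedom. Both hairpins were compared with the same scramble arrays, so these comparisons are not independent. The members, 9 gene lists and tests were chosen with earlier results of these data known. Named genes were the RASSF symbols, DOCK1, list members (by preference those called), the 3 protein-coding genes nearest each of RASSF3, RASSF9 and DOCK1 in root mean square difference over the arrays, and 2 measured protein-coding neighbours on each side. The procedure was tested on simulated data, but no outcome of that test is given here. Alternatives were quantile normalization of the centred values, centred array medians, the replicate number as a block and only the arrays compared. Array weights, a robust prior, probe sets kept apart, protein-coding genes only and each array left out were also run. Promoter windows came from RefSeq (GRCh38.p14), and RASSF7, RASSF8 and RASSF10 were not matched there.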

Additional observations from a re-analysis of the deposited data

Results flagged for a closer look

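The 2 hairpins differed from each other in several named genes by the limma contrast of shRNA#2 minus shRNA#4. In this contrast 15.3% of all 14884 genes were called, so a difference between the hairpins is not particular to these genes. The values that follow are log2 differences in that direction. RASSF2 differed by -0.97 and RASSF8 by -0.74. Among the DOCK genes, DOCK9 differed by -0.69, DOCK8 by 0.54, DOCK4 by 0.43 and DOCK6 by 0.30. The calls of DOCK4 and DOCK6 did not hold with each array left out (limma adjusted p up to 0.121 and 0.13), while those of DOCK8 and DOCK9 did. Among the GTPases, RIT1 differed by -0.58 and RALB by -0.46. MOB1A differed by 0.48 and STK3 by 0.33 among the Hippo genes, and both calls ended on leaving out 1 array (limma adjusted p up to 0.0695 and 0.207). Among the effectors of Rac, PAK2 differed by -0.53 and CYFIP1 by -0.29. VIM, a mesenchymal marker averaged over 3 probe sets of unequal change, differed by -0.28. The calls of PAK2, CYFIP1 and VIM also ended on leaving out 1 array (limma adjusted p up to 0.0881, 0.105 and 0.113). RASSF3 and DOCK1 differed by -1.08 and -1.14, with every shRNA#2 array below and every shRNA#4 array above scramble. For RASSF3 and DOCK1 this difference was not tested, since it chose the genes. Groups of 2 arrays are too small to single out an outlying array.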

How the results depend on the processing

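None of 105 called gene changes, nor any change of RASSF3, RASSF9 or DOCK1, turned its sign under the alternatives run, while 65 of 215 uncalled ones did in at least 1. Of 105 calls among 320 tested gene changes, 42 were kept in every alternative and 188 of 215 uncalled changes stayed uncalled in every one. Leaving out 1 array at a time gave 1756 to 2982 called genes for shRNA#2 against scramble (3220 with all arrays), 2677 to 3476 for shRNA#4 against scramble (3884), 761 to 2166 between the hairpins (2272) and 2477 to 3358 for the mean of both hairpins (3784). The counts moved by over 1.5 times without replicate 1 of scramble (2038 with shRNA#2 and 2477 for the mean), without replicate 1 or 2 of shRNA#2 (1756 and 1892 against scramble, 761 and 1022 between the hairpins) and, between the hairpins, without replicate 1 or 2 of shRNA#4 (1300 and 1057). The other RASSF symbols called were 1 to 3 (3), 1 to 4 (5), 2 to 2 (2) and 1 to 4 (2) in the same order. Fewer arrays leave less power, and no other cause was tested. Quantile normalization was run on the centred values, which hold no levels, so it made the spread of these differences equal between arrays. It is not a normalization of the signal. It moved RASSF9 to 2.34 with shRNA#2, 0.76 with shRNA#4 and 1.58 between the hairpins. In the same order, RASSF3 moved to -0.36, 0.94 and -1.30, and DOCK1 to -0.46, 0.90 and -1.36. The cause was not tested. The replicate numbers occur in every group and their deviations correlated at 0.199 for both hairpins, 0.179 for shRNA#2 and scramble and 0.119 for shRNA#4 and scramble, but with 2 numbers they were taken as names only. With replicate number as a block, 3598, 4227, 2637 and 4160 genes were called, and 3, 5, 2 and 3 of the other RASSF symbols, RASSF2 being added for the mean (adjusted p 0.0204). Of the 320 gene changes the block added 13 calls, among them ELMO3 with shRNA#2 (0.0325), and ended 3, among them STK3 between the hairpins (0.0592). A filter on dim probe sets was not run, since centred values hold no level, and signal over background is unknown. The fit of only the arrays compared has no form for the mean of both hairpins.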
